A study of Homo sapiens with 12 samples.

Results

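MYC and 7 genes around it on chromosome band 8q24, PVT1, CASC19, CASC8, CASC21, CCAT1, PCAT1 and POU5F1B, were followed in 2 triple negative breast cancer cell lines after loss of CD44. The genes were chosen from earlier results of these counts. CASC19 was picked for its low counts in MDA-MB-231 CD44 KO, and the others for their place beside it and MYC. The count table holds 58381 genes. Of the 8 genes, 6 have a row of their own, while CCAT1 and CASC21 have none.

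MYC encodes a transcription factor that pairs with MAX and drives ribosome production, metabolism and growth in many tumors. The region around it holds few other protein-coding genes but many long noncoding RNAs and enhancers, and in other cancers some of those enhancers contact the MYC promoter from far away. PVT1, CCAT1, CASC19, CASC21, CASC8 and PCAT1 are noncoding RNAs of that region, several of which were first found through cancer risk or copy number gains. CCAT1 and PVT1 in particular have been tied to MYC, the first through its enhancer and the second through MYC protein stability and a promoter that competes for the same enhancers.

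Libraries were made from 4 groups of 3: Hs578T CD44 WT, Hs578T CD44 KO, MDA-MB-231 CD44 WT and MDA-MB-231 CD44 KO. Hs578T was established from tumor tissue of the breast, and MDA-MB-231 from cells of a pleural effusion. All 4 groups carried a doxycycline-inducible Cas9. The KO cells received guides to exons 1 and 5 of CD44, and the WT controls received transfection reagent only, so that no group carried a guide without a CD44 target. Live cells were sorted as CD29+/CD44+ (WT) or CD29+/CD44- (KO), expanded as populations rather than single clones, and held in low serum for a day before RNA was taken. Nothing states if the RNA samples within a group were grown apart, so p-values measure only the spread between these samples, which may be technical.

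The libraries held 10257586 to 19725543 counted fragments, with a median of 12186096. CD44 was measured at 507 ± 17.6 CPM (fragments relative to the library total, scaled by the trimmed mean of M-values; mean ± SD, n = 3) in Hs578T WT and 27.3 ± 2.06 CPM in Hs578T KO. In MDA-MB-231 it was 362 ± 1.70 CPM in WT and 34.2 ± 5.40 CPM in KO, so the labels held in all 12 libraries. Of the other markers, the mesenchymal VIM and the sorted ITGB1 (CD29) were abundant in every group, the epithelial EPCAM had 2 fragments in each Hs578T group and means of 17.6 and 16.8 CPM in MDA-MB-231 WT and KO, PGR had no count, ESR1 reached at most 1.15 CPM, and ERBB2 means lay between 61.9 and 94.5 CPM. The leukocyte marker PTPRC stood at 3.78 ± 0.895 CPM in Hs578T KO and at or below 0.369 ± 0.179 CPM in the other groups, and its part in the results below was not tested. One MDA-MB-231 WT library has no replicate number that its name can be tied to, and is called the unnumbered library here.

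The 6 rows lie on chromosome 8 of GRCh38. MYC spans 127735434 to 127741434 on the plus strand, with 3 exon blocks and 3001 exonic nt. PVT1 begins 59.1 kb past the MYC start, runs from 127794533 to 128101253 on the same strand and has 5493 exonic nt in 21 exon blocks. CASC19 covers 127072694 to 127227541 on the minus strand, with 32 exon blocks and 22208 exonic nt, and CASC8 covers 127289817 to 127482139, also on the minus strand, with 2342 exonic nt. PCAT1 spans 126556323 to 127419050 and POU5F1B spans 127322183 to 127420066, both on the plus strand.

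What a row counts decides how its values can be read. The CASC19 row is far longer than the CASC19 gene of RefSeq, whose span from 127187785 to 127197627 takes in 15.6% of the exonic length of the row. The RefSeq span of CCAT1, 127207382 to 127219268, takes in another 12.6%, in 2 exon blocks. Fragments of CCAT1, if it lies on the same strand, would thus have been counted in the CASC19 row, and the 2 cannot be told apart in these counts. The RefSeq span of CASC21, 127244637 to 127392631, takes in 21.3% of the exonic length of the PCAT1 row and 16.4% of that of the CASC8 row. PCAT1 and POU5F1B share 848 exonic nt on the same strand, which is 17.1% of the POU5F1B row, and fragments in that stretch were not counted for either. Counting used the strand, so the minus-strand rows CASC19 and CASC8 were kept apart from the plus-strand rows PCAT1 and POU5F1B that run through them.

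CASC19 was the gene whose values chose the group, so its levels are given as a description, without a test. In MDA-MB-231 WT, replicate 1, replicate 3 and the unnumbered library held 577, 559 and 523 fragments of the CASC19 row, or 49.4, 45.3 and 46.6 CPM. In MDA-MB-231 KO, replicates 1, 2 and 3 held 37, 49 and 15 fragments, or 3.13, 2.60 and 1.48 CPM. All 3 KO libraries lay far below all 3 WT libraries, and none was at 0. The mean level was 47.1 ± 2.11 CPM in WT and 2.40 ± 0.843 CPM in KO, and the fitted log2 fold change was -4.26 with an SE of 0.20. Over the summed counts, WT stood 19.0-fold above KO, with an exact 95% counting interval of 15.6 to 23.5.

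No fragment of the CASC19 row was counted in any Hs578T library, WT or KO. A count of 0 allows up to 0.0781 CPM over the WT group and 0.0742 CPM over the KO group, taking 3 counts as the floor. MDA-MB-231 WT was therefore at least 603-fold higher than Hs578T WT, and MDA-MB-231 KO, after its loss, was still at least 33.3-fold higher than Hs578T KO. Whether CD44 KO acted on CASC19 in Hs578T could not be asked of a gene with no counts. These bounds and intervals cover counting error only.

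**Figure D1:**
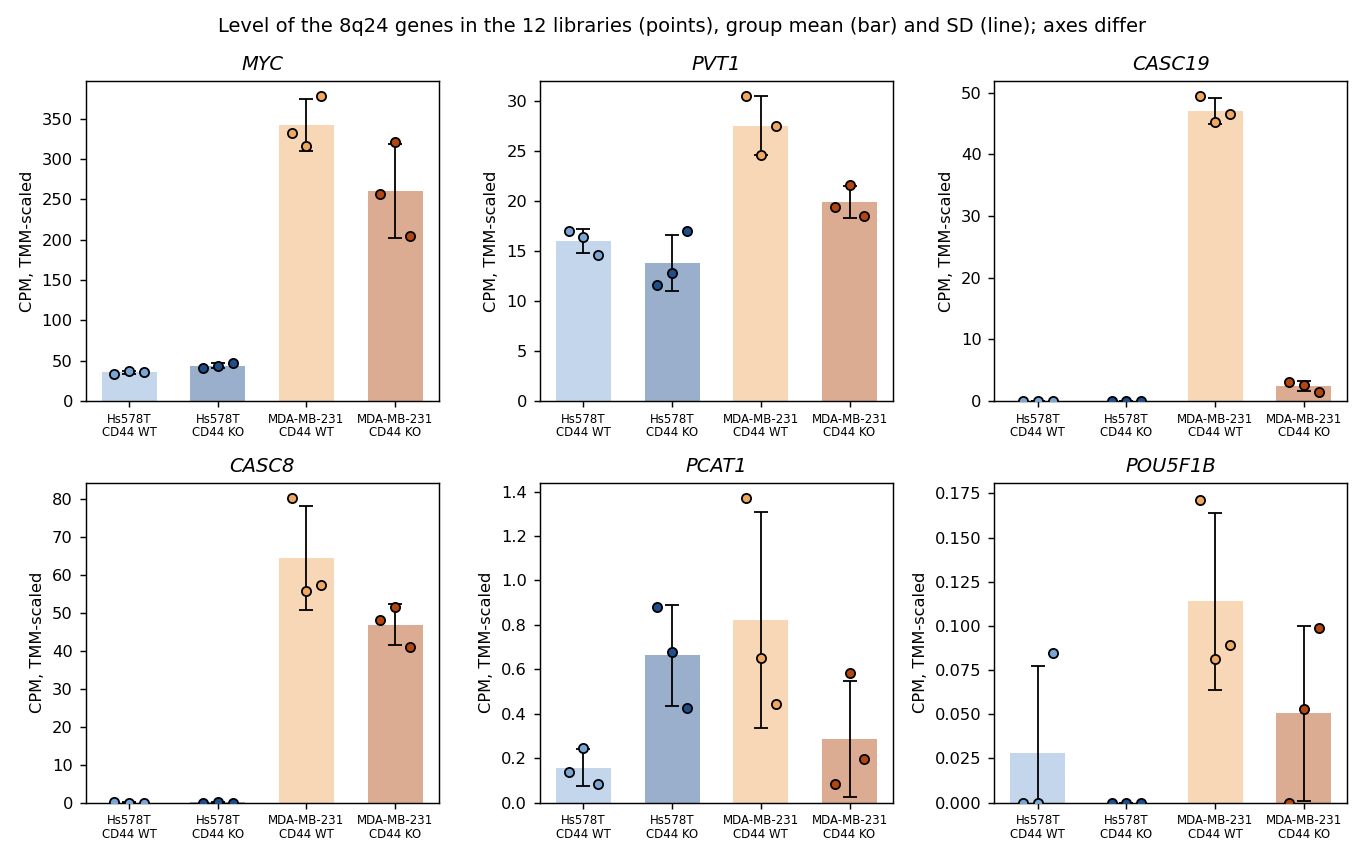
Level of the 6 rows in each library, in CPM scaled by the trimmed mean of M-values, with points for libraries, bars for group means and lines for the SD (n = 3). The vertical axes differ. CASC19 fell from 47.1 to 2.40 CPM between WT and KO of MDA-MB-231, while MYC went from 342 to 260 CPM with overlapping libraries; PCAT1 and POU5F1B rested on few counts in every group.

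MYC was measured at 332, 316 and 378 CPM in MDA-MB-231 WT (replicate 1, replicate 3 and the unnumbered library) and at 256, 321 and 204 CPM in KO replicates 1, 2 and 3. The groups overlapped, since KO replicate 2 stood above WT replicate 3. The means were 342 ± 32.1 CPM and 260 ± 58.6 CPM, and the log2 fold change was -0.39 (SE 0.13, 95% interval -0.67 to -0.11), with an adjusted p of 0.0736 in edgeR's quasi-likelihood test. MYC thus did not pass the threshold of 0.01 while CASC19 stood 19.0-fold lower, and the interval allows MYC in KO to be anywhere from 0.63 to 0.92 of its WT level. The value moved most with single KO libraries, to -0.57 (adjusted p = 0.0116) without replicate 2 and to -0.23 (adjusted p = 0.270) without replicate 3. Of the 3 KO libraries, replicate 3 was lowest for both genes, but replicate 2 was highest for MYC and second for CASC19. That order is a description, since CASC19 was picked for these values. Whether the 2 genes vary together was not tested.

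In Hs578T, where CASC19 had no counts, MYC lay the other way. It was measured at 33.0, 37.2 and 35.7 CPM in WT replicates 1, 2 and 3 and at 40.7, 43.5 and 47.0 CPM in the KO replicates. Every KO library was above every WT library, as they were for 18.7% of the genes tested. The log2 fold change was 0.31 (SE 0.14, 95% interval 0.01 to 0.61), with an adjusted p of 0.165, so this difference did not pass the threshold either. The KO effect on MYC in Hs578T minus that in MDA-MB-231 was 0.70 (SE 0.19, 95% interval 0.29 to 1.11) on the log2 scale, with an adjusted p of 0.0296, above the threshold of 0.01 that 4.12% of the genes tested passed. Without MDA-MB-231 KO replicate 2 it rose to 0.88, with an adjusted p of 0.00504.

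The distance between the lines was far larger than either KO difference. MYC was higher in MDA-MB-231 WT than in Hs578T WT by 3.28 on the log2 scale (SE 0.14, adjusted p = 2.43e-11), in a comparison where 61.5% of the genes tested were called and 29.4% were called higher. Per kb of exon, mean levels ran from 11.8 ± 0.705 CPM per kb in Hs578T WT through 14.6 ± 1.06 in Hs578T KO and 86.8 ± 19.5 in MDA-MB-231 KO to 114 ± 10.7 in MDA-MB-231 WT. In that order the 2 groups of each line are neighbours, and neither pair passed the test. In MDA-MB-231 WT, MYC stood above 97.6% of the genes tested, and in Hs578T WT above 74.1%.

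PVT1, a long noncoding RNA that starts just past MYC, was measured at 30.5, 24.7 and 27.5 CPM in MDA-MB-231 WT and at 19.4, 21.7 and 18.6 CPM in KO. Every KO library was lower than every WT library, which held for 13.7% of the genes tested in this direction. The log2 fold change was -0.47 (SE 0.14, 95% interval -0.77 to -0.17), with an adjusted p of 0.0486. PVT1 therefore did not pass at 0.01, and would at 0.05.

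In Hs578T, PVT1 was measured at 16.99, 16.5 and 14.6 CPM in WT and at 11.6, 12.8 and 16.97 CPM in KO, with overlapping groups. The log2 fold change was -0.22 (SE 0.15, 95% interval -0.53 to 0.09, adjusted p = 0.371). The KO effects of the 2 lines differed by 0.25 (95% interval -0.19 to 0.68, adjusted p = 0.506), an interval that spans no difference. It overlaps the interval of 0.29 to 1.11 for MYC, and PVT1 was not tested against MYC. Between the WT lines PVT1 was higher in MDA-MB-231 by 0.78 (SE 0.14, adjusted p = 0.000154), from 2.92 ± 0.224 to 5.02 ± 0.533 CPM per kb. That fold of 1.72 compares with 9.69 for MYC.

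The ratio of PVT1 to MYC fragments within a library does not depend on how libraries are scaled. In Hs578T there were 41.0 to 51.5 PVT1 fragments for each 100 MYC fragments in WT and 28.6 to 36.1 in KO, so the ranges did not meet. In MDA-MB-231 there were 7.29 to 9.19 in WT and 6.75 to 9.10 in KO, and the ranges overlapped almost wholly. These ratios were not tested, and how often the ranges of other gene pairs fail to meet was not computed. The MIR1204 to MIR1208 rows, microRNA genes within the PVT1 region, held between 0 and 4 fragments each over all 12 libraries.

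CASC8 is the noncoding neighbour between CASC19 and MYC. It was measured at 80.3, 55.7 and 57.5 CPM in MDA-MB-231 WT and at 48.0, 51.6 and 41.1 CPM in KO. Again each KO library was lower than each WT library, as for 13.7% of the genes tested. WT replicate 1 stood well above the other 2 WT libraries. The log2 fold change was -0.46 (SE 0.16, 95% interval -0.79 to -0.12, adjusted p = 0.0869), and -0.27 (adjusted p = 0.299) without WT replicate 1. CASC8 thus did not pass the threshold. Its interval lies well above the -4.26 of CASC19, but CASC19 was picked for that loss, so the distance is a description.

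Like CASC19, CASC8 was nearly absent from Hs578T, with 1 fragment over the 3 WT libraries and 2 over the 3 KO libraries. MDA-MB-231 WT stood 2473-fold above Hs578T WT, with a counting interval of 443 to 97724 that reflects the single fragment. Per kb of exon, CASC8 reached 27.5 ± 5.86 CPM in MDA-MB-231 WT, above 87.5% of the genes tested, whereas the much longer CASC19 row reached 2.12 ± 0.0949 CPM, above 38.8%. For each 100 CASC8 fragments, MDA-MB-231 WT libraries held 61.6 to 81.4 CASC19 fragments and KO libraries 3.61 to 6.53. CASC8 kept 15.2 to 24.2 fragments for each 100 of MYC in WT and 16.1 to 20.1 in KO.

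Apart from CASC19, then, 0 of 3 members tested in MDA-MB-231 were called by edgeR and 0 of 3 by DESeq2, against 4.62% of all genes tested, 2.65% called lower and 1.97% called higher. All 3 had a log2 fold change between -0.47 and -0.39 and an unadjusted p under 0.05, as did 23.4% of the genes tested. In Hs578T, 0 of 2 members were called by either tool, against 7.51% of genes, and MYC alone had an unadjusted p under 0.05, as did 27.4% of genes.

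**Figure D2:**
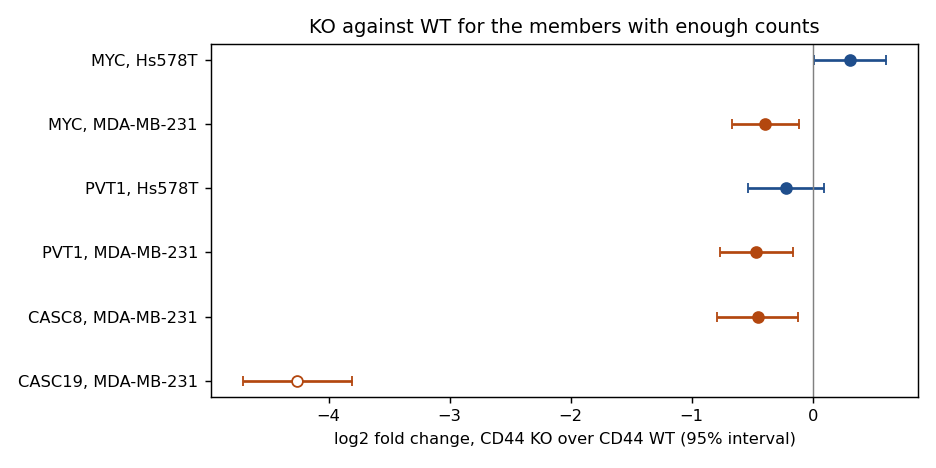
Fitted log2 fold change of CD44 KO over WT, with 95% intervals (horizontal axis), for the members with enough counts in each line. MYC, PVT1 and CASC8 of MDA-MB-231 lie together between -0.47 and -0.39, MYC of Hs578T lies at 0.31, and CASC19, drawn open because its values chose it, lies at -4.26.

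PCAT1, first described in prostate cancer, was too low to be tested. Its row held 2, 3 and 1 fragments in Hs578T WT, 11, 11 and 5 in Hs578T KO, 16, 8 and 5 in MDA-MB-231 WT and 1, 11 and 2 in MDA-MB-231 KO. The Hs578T KO libraries all lay above the WT libraries, as they did for 18.7% of the genes tested. The summed counts gave a KO to WT ratio of 4.28 with a counting interval of 1.73 to 12.7. In MDA-MB-231 the groups overlapped, at a ratio of 0.417 (0.203 to 0.814). When the filter on low counts was dropped, the log2 fold change of PCAT1 was 2.04 in Hs578T (SE 0.65, adjusted p = 0.0227) and -1.27 in MDA-MB-231 (SE 0.55, adjusted p = 0.189), and their difference of 3.31 had an adjusted p of 0.00307. All of this rests on 76 fragments in 12 libraries, some of which may belong to CASC21.

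POU5F1B, a retrocopy of the pluripotency factor gene POU5F1 that lies inside the CASC8 interval, was at the floor. It held 1 fragment over the Hs578T WT libraries, 0 over Hs578T KO, 4 over MDA-MB-231 WT and 2 over MDA-MB-231 KO. Its parent POU5F1 had 0 or 1 fragment per group. Fragments that align to both copies were not counted, so a low value for either is a lower limit.

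Around MYC, 78 rows start within 3 Mb, and 14 of them passed the filter, 10 besides the 4 members. None of the 10 was called in either line by edgeR or DESeq2, beside shares over all genes of 7.51% called by edgeR in Hs578T and 4.62% in MDA-MB-231. Of the 9 with more than 3 counts in Hs578T, 7 had an unadjusted p under 0.05, as did 27.4% of all genes tested, and the median log2 fold change was -0.17. The lowest there was TRIB1, a pseudokinase gene before MYC, at -0.65 (SE 0.21, adjusted p = 0.0528), and the highest ENSG00000253841 at 0.76 (SE 0.26, adjusted p = 0.0783). Of the 9 with more than 3 counts in MDA-MB-231, 1 had an unadjusted p under 0.05, as did 23.4% of all genes tested, and the median was 0.17. That one was ASAP1, a regulator of the actin cytoskeleton beyond PVT1, at 0.43 (SE 0.15, adjusted p = 0.0784). In Hs578T ASAP1 lay the other way, at -0.49 (SE 0.14, adjusted p = 0.0333). Its KO effect in Hs578T minus that in MDA-MB-231 was -0.92 (SE 0.20, adjusted p = 0.01002 by edgeR). For this difference edgeR called 0 and DESeq2 called 1 of the 8 neighbours with more than 3 counts in each line. Of all 15836 genes edgeR called 4.12% and DESeq2 called 1177.

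CASC19 was picked for its low KO counts in MDA-MB-231, so its distance from its neighbours is a description. No tested gene on either side showed a change as large as that of CASC19. On the side away from MYC, LRATD2 stood at 46.0 ± 5.96 CPM in MDA-MB-231 WT and 52.7 ± 7.42 CPM in KO, a log2 fold change of 0.20 (SE 0.14, adjusted p = 0.442). On the MYC side, CASC8 was the nearest gene tested, with the values given above. Over the 9 genes the log2 fold changes ran from -0.74 to 0.43 in MDA-MB-231 and from -0.65 to 0.76 in Hs578T.

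**Figure D3:**
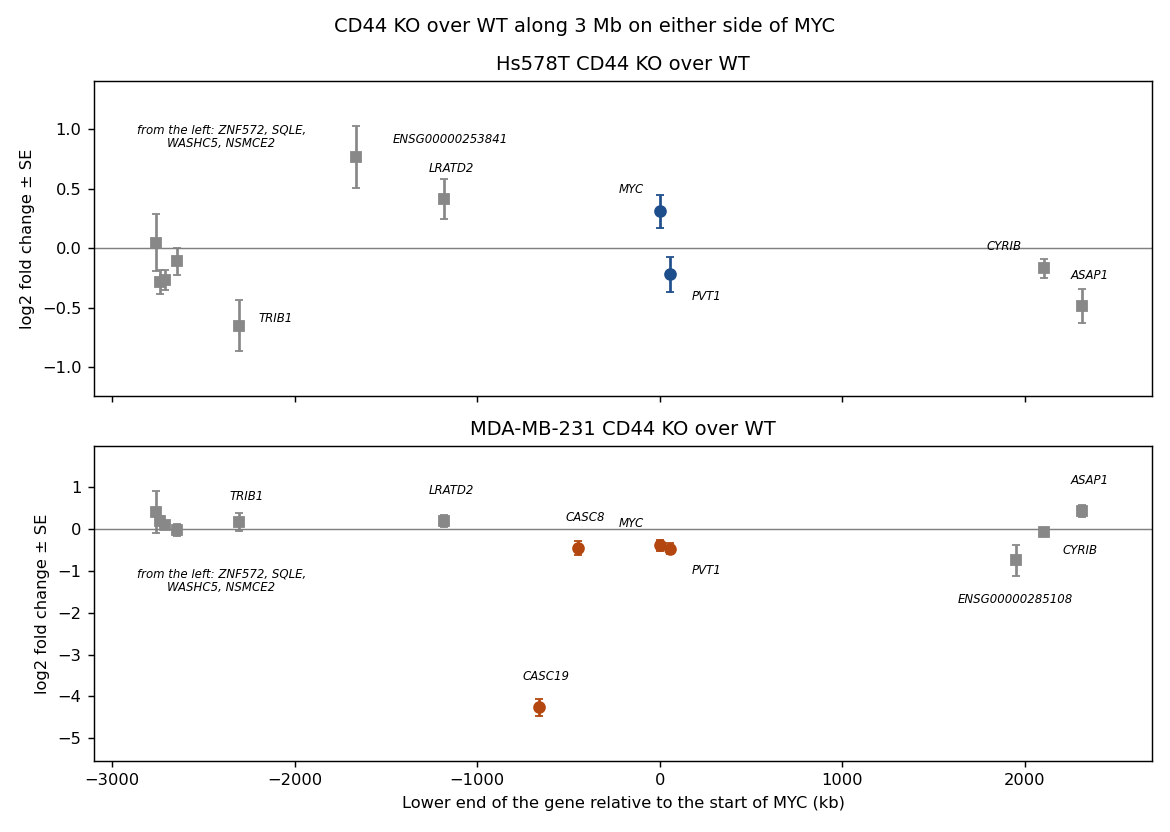
Log2 fold change of CD44 KO over WT (vertical axis, ± SE) for the tested genes within 3 Mb of MYC, by the distance in kb of their lower end from the MYC start, for Hs578T (top) and MDA-MB-231 (bottom). Members are circles and other genes squares, and genes with 3 or fewer counts in a line are left out. In MDA-MB-231, CASC19, which was picked for its low KO counts, lies at -4.26. The other genes shown there run from -0.74 to 0.43.

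MYC protein works through partners and is set by its own turnover, so genes of both kinds were read beside the MYC RNA. Of 12 network genes tested in Hs578T, edgeR called 1 higher and 0 lower, where it called 3.64% and 3.86% of all genes. DESeq2 called 2 higher and 0 lower, and 3 of the 12 had an unadjusted p under 0.05, as did 27.4% of all genes. The gene that edgeR called was MLXIP, a glucose-sensing relative of MYC that pairs with MLX, which went from 150 ± 12.5 to 199 ± 13.6 CPM (log2 fold change 0.41, adjusted p = 0.00644). In MDA-MB-231 0 of 12 were called by edgeR or DESeq2, where edgeR called 4.62% of all genes. There 3 of the 12 had an unadjusted p under 0.05, as did 23.4% of all genes. MAX, the obligate partner of MYC, went from 42.7 ± 2.68 to 41.9 ± 1.84 CPM in Hs578T (-0.03, adjusted p = 0.912). In MDA-MB-231 it went from 81.1 ± 8.82 to 67.1 ± 7.33 CPM (-0.27, adjusted p = 0.123). The median of the 12 log2 fold changes stood at 0.13 for Hs578T, where that of all genes tested was -0.0016, and at -0.10 for MDA-MB-231, where that of all genes tested was -0.0096.

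Genes for MYC protein turnover, among them FBXW7 and SKP2, which tag MYC for degradation, held no call. In each line 0 of 13 were called by edgeR or DESeq2, and 3 in Hs578T and 1 in MDA-MB-231 had an unadjusted p under 0.05. Of all genes tested, edgeR called 7.51% in Hs578T and 4.62% in MDA-MB-231, and 27.4% and 23.4% had an unadjusted p under 0.05. The medians of the 13 were -0.05 and 0.01.

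Regulators of MYC transcription and of MYC RNA held 4 calls by edgeR. Of 16 tested in Hs578T, edgeR called 3 lower and 0 higher, DESeq2 called 3 lower and 1 higher, and 7 had an unadjusted p under 0.05. Of all genes tested there, edgeR called 3.86% lower, and 27.4% had an unadjusted p under 0.05. LEF1, a TCF/LEF factor through which WNT signals reach their target genes, went from 219 fragments over the WT libraries to 1 over the KO libraries (adjusted p = 1.37e-05), a WT to KO ratio of 231 with a counting interval of 40.9 to 9146. TCF7L1, of the same family, went from 14.8 ± 1.54 to 6.90 ± 0.368 CPM (-1.10, adjusted p = 0.00610). IGF2BP3, which binds and stabilizes MYC RNA, went from 34.6 ± 4.09 to 21.4 ± 4.34 CPM (-0.69, adjusted p = 0.00706). MYC in the same libraries was higher in KO, short of the threshold.

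In MDA-MB-231, edgeR and DESeq2 each called 1 of the 16 lower and 0 higher, where edgeR called 2.65% of all genes lower. There 7 of the 16 had an unadjusted p under 0.05, as did 23.4% of all genes. The gene that edgeR called was IGF2BP2, a paralog of IGF2BP3 that also binds MYC RNA, from 214 ± 11.5 to 145 ± 10.9 CPM (-0.56, SE 0.09, adjusted p = 0.00103). LEF1 stood there at 15.3 ± 1.95 CPM in WT and 17.4 ± 4.45 CPM in KO (0.19, adjusted p = 0.744). The medians of the list were -0.02 in Hs578T and 0.02 in MDA-MB-231.

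Of 17 ribosome and nucleolar genes that MYC is known to induce, edgeR and DESeq2 each called 1 lower in Hs578T and 0 in MDA-MB-231. Of all genes, edgeR called 3.86% lower in Hs578T and 4.62% in either direction in MDA-MB-231. An unadjusted p under 0.05 was reached by 6 of the 17 in Hs578T and 3 in MDA-MB-231, beside 27.4% and 23.4% of all genes. NOP58, a core protein of box C/D ribonucleoproteins, went from 181 ± 13.5 to 129 ± 10.7 CPM in Hs578T (-0.49, adjusted p = 0.00590). Its MDA-MB-231 levels were 210 ± 24.9 and 179 ± 19.6 CPM (-0.23, adjusted p = 0.211). In each line 14 of the 17 had a log2 fold change below 0, with medians of -0.21 in Hs578T and -0.11 in MDA-MB-231. MYC itself lay higher in one line and lower in the other.

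Of 20 induced metabolic genes in Hs578T, edgeR called 2 higher and 0 lower, where it called 3.64% and 3.86% of all genes. DESeq2 called 3 of the 20 higher and 1 lower, and 9 had an unadjusted p under 0.05, as did 27.4% of all genes. Of the edgeR calls, SHMT2, of mitochondrial one-carbon metabolism, went from 360 ± 14.7 to 533 ± 36.8 CPM (0.57, adjusted p = 0.00181), and SLC16A1, a lactate transporter, from 193 ± 4.35 to 270 ± 23.7 CPM (0.49, adjusted p = 0.00681). In MDA-MB-231, edgeR called 1 of the 20 lower and 0 higher, where it called 2.65% and 1.97% of all genes. DESeq2 called 2 lower and 1 higher, and 6 had an unadjusted p under 0.05, as did 23.4% of all genes. The edgeR call was LDHA, lactate dehydrogenase A, which went from 3081 ± 570 to 1726 ± 467 CPM (-0.84, SE 0.16, adjusted p = 0.00310). LDHA lies on chromosome 11, as does CD44, and whether its place bears on this difference was not tested. The medians were 0.02 and -0.10.

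Of 8 induced cell cycle genes, 0 were called in Hs578T by edgeR and 1 by DESeq2, where edgeR called 7.51% of all genes. There 4 of the 8 had an unadjusted p under 0.05, as did 27.4% of all genes, and the median of the 8 was -0.32. In MDA-MB-231, 1 fell, CCND2, a cyclin of the G1 phase, from 7.03 ± 1.91 to 2.74 ± 0.754 CPM (-1.33, SE 0.29, adjusted p = 0.00843), and the median was 0.0056. Of all genes there, edgeR called 2.65% lower. An unadjusted p under 0.05 was reached by 3 of the 8, beside 23.4% of all genes. Over the 45 induced genes together, edgeR called 1 lower and 2 higher in Hs578T, where it called 7.51% of all genes. DESeq2 called 3 lower and 3 higher, where it called 1553 of all 15836 genes. Of the 45, 19 had an unadjusted p under 0.05, as did 27.4% of all genes. In MDA-MB-231 edgeR called 2 lower and 0 higher, where it called 4.62% of all genes. DESeq2 called 3 lower and 1 higher, where it called 1138 of all 15836 genes. Of the 45, 12 had an unadjusted p under 0.05, as did 23.4% of all genes. The medians of the 45 were -0.10 and -0.11.

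Of 11 genes tested that MYC is known to repress, edgeR called 3 higher and 1 lower in Hs578T, where it called 3.64% and 3.86% of all genes. DESeq2 called 4 higher and 0 lower, and 8 of the 11 had an unadjusted p under 0.05, as did 27.4% of all genes. The median of the 11 was 0.43. The number edgeR called dropped from 4 to 1 without Hs578T WT replicate 1, without Hs578T KO replicate 2 or without MDA-MB-231 WT replicate 3, and to 2 without any 1 of the other 4 Hs578T libraries. DDIT3, a stress-induced transcription factor, went from 34.3 ± 2.66 to 74.5 ± 13.7 CPM (1.12, adjusted p = 0.000475), TXNIP, a brake on glucose uptake, from 54.2 ± 19.6 to 110 ± 32.6 CPM (1.03, adjusted p = 0.00685), and GADD45A, a growth arrest gene, from 21.2 ± 2.63 to 30.9 ± 5.19 CPM (0.55, adjusted p = 0.00776). GAS1, another growth arrest gene, went from 50 fragments over the WT libraries to 5 over the KO libraries (-3.26). It was the 1 gene edgeR called lower, and DESeq2 did not call it. Its mean was 1.24 ± 0.910 CPM in Hs578T WT and 0.133 CPM or less in the other groups. It thus passed the filter only through the group where it was high, so its fall is a description.

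In MDA-MB-231, edgeR called 3 of the 11 higher and 0 lower, where it called 1.97% of all genes higher. DESeq2 called 4 higher and 0 lower, and 4 had an unadjusted p under 0.05, as did 23.4% of all genes. The median was 0.22, and the number edgeR called dropped from 3 to 1 without MDA-MB-231 WT replicate 3. THBS1, a matrix glycoprotein that limits vessel growth, went from 183 ± 23.9 to 410 ± 55.2 CPM (1.17, SE 0.16, adjusted p = 0.000243). NDRG2 went from 1.93 ± 0.0398 to 4.30 ± 0.814 CPM (1.13, SE 0.20, adjusted p = 0.00228). CDKN1A, the p21 inhibitor of cyclin-dependent kinases, went from 43.2 ± 3.73 to 70.7 ± 15.2 CPM (0.71, SE 0.14, adjusted p = 0.00400), and from 69.3 ± 4.82 to 101 ± 10.8 CPM in Hs578T (0.55, adjusted p = 0.0122), short of the threshold. Of the 17 calls named in these lists, 3 (LEF1, DDIT3 and THBS1) held under every alternative run. The other 14 were lost under at least 1 of them, mostly with a single library left out. With each line filtered and fitted alone, IGF2BP2, LDHA, CCND2, CDKN1A and NDRG2 of MDA-MB-231 and GADD45A, GAS1 and TXNIP of Hs578T were lost. That fit called 315 genes in MDA-MB-231, where the main fit called 731, and 1525 in Hs578T, where it called 1189.

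**Figure D4:**
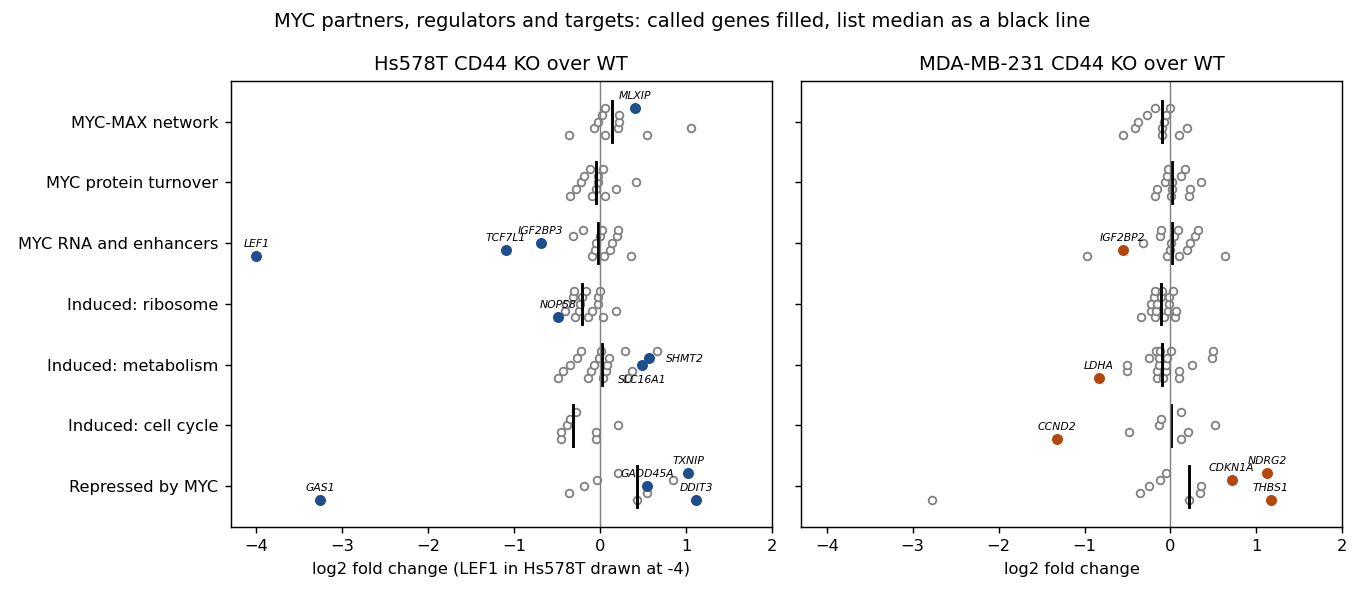
Fitted log2 fold change of CD44 KO over WT (horizontal axis) for genes of the MYC network, its regulators and its known targets, in Hs578T (left) and MDA-MB-231 (right). Filled points passed an adjusted p of 0.01, black lines are list medians, and LEF1 of Hs578T is drawn at the edge. The 45 induced genes held 3 calls in Hs578T, where 7.51% of all genes were called, and 2 in MDA-MB-231, where 4.62% were; the 11 repressed genes held 4 and 3, with medians of 0.43 in Hs578T and 0.22 in MDA-MB-231.

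Likeness over the 12 libraries was measured as the root mean square difference in log2 CPM after each gene was centred on its own mean. For MYC the nearest were SLC36A4 at 0.200, RIOX1 at 0.202 and ST3GAL6 at 0.206, on chromosomes 11, 14 and 3. For PVT1 they were ENSG00000230979 at 0.137, EIF2B5 at 0.144 and ZNF335 at 0.150. MYC and PVT1 were thus not among the 3 nearest of each other. The measure takes in the gap between the lines, which on the log2 scale was 3.28 for MYC and 0.78 for PVT1 in WT. It therefore cannot tell if their KO effects are alike.

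For CASC19 the nearest were LINC01088 at 0.469, EPB41L3 at 0.620 and PGM5 at 0.644, on chromosomes 4, 18 and 9. LINC01088, a long noncoding RNA, went from 47.7 ± 12.2 to 3.10 ± 0.164 CPM between WT and KO of MDA-MB-231 and had no count in Hs578T WT. EPB41L3, a membrane-cytoskeleton adaptor, went from 118 ± 38.6 to 3.86 ± 1.02 CPM, and PGM5, of the phosphoglucomutase family, from 19.0 ± 2.29 to 1.11 ± 0.288 CPM. These genes were found by their likeness to CASC19, so their values are a description.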

How the data were processed

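Stranded mRNA libraries of 12 samples, 3 per group, were measured. The authors aligned paired reads to GRCh38 with HISAT2 2.1.0 and counted fragments with featureCounts 1.6.2 on GENCODE version 28, with both ends mapped, a mapping quality of at least 10 and reverse strand. The deposited values are raw fragment counts per gene. Columns of the table were matched to samples by name, and 57799 rows were given a symbol. Spans of CCAT1 and CASC21 came from RefSeq on GRCh38.p14, in a table without strands.

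The fit took the 15836 genes whose CPM exceeded 1 in 2 or more libraries and whose exonic length was 300 nt or more, and was made with edgeR 4.0.16 (R 4.3.3; TMM factors, legacy quasi-likelihood fit, 4 group means). The methods of the study word the length filter as under 300 nt. P-values were adjusted by the Benjamini-Hochberg method over all genes tested, and a gene was called at 0.01 or less. The SE was the size of the log2 fold change divided by the square root of the F statistic. The fit was tested on simulated data. Depth limits the precision of low genes.

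The members and lists were chosen with earlier results of these data known. Besides all members, up to 4 called genes were named per list and line, ranked by log2 fold change, with MAX in any case, and for MYC, PVT1 and CASC19 the 3 nearest in pattern. TRIB1, ASAP1 and LRATD2 were named after their values were seen. Alternatives were DESeq2 1.42.0, other scalings, filters, fits, thresholds, replicate blocks and each library left out.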

Additional observations from a re-analysis of the deposited data

How the results depend on the processing

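MYC kept its direction in every contrast under all alternatives run. Its difference in MDA-MB-231 passed the threshold without a filter on low counts (-0.37, adjusted p = 0.00945), and stayed between -0.57 and -0.23 with single libraries left out. The difference between the lines passed without that filter (0.69), at a threshold of 0.05 (0.70) and without MDA-MB-231 KO replicate 2 (0.88), and lay between 0.54 and 0.88 with libraries left out. PVT1 in MDA-MB-231 passed only at a threshold of 0.05. CASC19 in MDA-MB-231 stayed between -4.45 and -4.04. With library size only in place of TMM the median of all genes between the WT lines moved from -0.04 to -0.16, and MYC was at 3.16.

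The number of genes called in Hs578T was 1189, and 1553 by DESeq2, 1984 without the low-count filter, 2253 at 0.05 and 605 to 1685 with single libraries left out. In MDA-MB-231 it was 731, and 1138 by DESeq2, 1370 without the filter, 315 with each line alone, 1518 at 0.05 and 355 to 763 with libraries left out. For the difference it was 653, and 1177 by DESeq2, 1373 without the filter, 1670 at 0.05 and 396 to 804 with libraries left out. Of the 17 calls named in the lists, all 17 kept their direction wherever they were tested, which for GAS1 was 20 of 23 alternatives. Of them 3, LEF1, DDIT3 and THBS1, stayed called throughout. Calls among the 45 induced targets numbered 0 to 13 over the alternatives for Hs578T and 0 to 7 for MDA-MB-231, and those among the 11 repressed targets 1 to 7 and 1 to 4. The causes were not tested.

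Deviations of same-numbered samples had r from -0.0957 to 0.164 for the title numbers and from 0.00793 to 0.164 for the label numbers. For the label numbers all 6 were above 0 and 3 of them above 0.1, so a weak pairing by these remains possible. The main fit used neither, and each was run as a block. For the title numbers, which are the replicate numbers, the unnumbered library was given the number left over in its group, an assumption. With the replicate number as a block, MYC was at 0.31 in Hs578T and -0.40 in MDA-MB-231, still not called, and 1141 and 659 genes were called. With consecutive label numbers as the block, edgeR put MYC at 0.31 in Hs578T (adjusted p = 0.141) and -0.40 in MDA-MB-231 (adjusted p = 0.0506). MYC was again not called, and 1305 and 824 genes were called.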
